A study of Mus musculus with 20 samples.

Results

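The axoneme is the microtubule core of a motile cilium, and the genes described here encode the protein families that decorate it. Members were all genes whose table name joins Tekt, Rsph, Spag, Cfap, Drc, Efhc or Efcab to a number, with at most a letter suffix and with pseudogene names left out. The rule gave 60 of the 45705 genes in the deposited table: 18 Cfap, 12 Efcab, 8 Rsph, 13 Spag and 5 Tekt genes, with Drc and Efhc genes as the rest. Of these, 59 were protein coding and 1, Spag17os, was an antisense RNA. They were then divided by their level in neural stem cells (NSCs): 50 had a median of at least 1 RPKM (reads scaled by how long a gene is and by the total of its library) over the NSC libraries, and 10 lay below it.

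In a motile cilium, a ring of doublet microtubules surrounds a central pair, and dynein motors on each doublet bend the shaft. Radial spokes carry signals from the central apparatus to the dyneins, the dynein regulatory complex links neighbouring doublets, and tektins and other inner proteins stiffen the doublet wall from within. In the periventricular zone, such cilia are carried by ependymal cells, which line the ventricle and descend from radial glia, whereas NSCs and glial progenitors carry at most a single primary cilium without spokes or a central pair. Several of the families also serve the sperm tail, and some members carry a family name but act outside the axoneme.

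The study asked how gene expression differs between NSCs and 4 populations of neural progenitors, and RNA was sequenced from 5 sorted populations in 4 batches, giving 20 libraries. All cells came from the periventricular tissue of Swiss Webster mouse pups at postnatal day 5, with the male and female pups of a litter pooled, and no treatment or transgene was named. The populations were sorted by surface antigen: NSC (CD133+ LeX+ CD140a- NG2-), BNAP/GRP1 (NG2+ CD140a- LeX+ CD133-), GRP2/MP3 (NG2+ CD140a- LeX- CD133-), GRP3 (NG2+ CD140a+ LeX- CD133-) and PFMP (NG2+ CD140a+ LeX+ CD133-). CD133 is itself found on ependymal cells and on ciliary membranes, the study describes BNAP/GRP1 and GRP2/MP3 as mixed populations, and libraries carry the name of their population and then their batch number (NSC 3 for batch 3).

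Some features of whole libraries touch the values below. Depth relative to BNAP/GRP1 1, read from the most common of the whole-number ratios of low values, was lowest in BNAP/GRP1 4 (0.0395). It was highest in BNAP/GRP1 3 (1.41). The next most common ratios were 0.0197 in BNAP/GRP1 4, 2.81 in BNAP/GRP1 3 and 2.24 in PFMP 3. These depths, and which library was deepest, are therefore uncertain. BNAP/GRP1 4 had a median of 8.30 RPKM over all genes, against 0 to 2.02 in the other 19 libraries. In batch 3, a list of 15 airway and lung epithelium genes summed to between 1849 and 2091 RPKM in all 5 libraries, against at most 149 RPKM elsewhere. The 8 ependymal genes outside the cilium (among them Tmem212, Mia and Riiad1) summed to 2443, 8096, 1027 and 6091 RPKM in NSC 1 to NSC 4 and to between 105 and 788 RPKM in the progenitor libraries. The 10 choroid plexus genes summed to 91.1, 215, 10.3 and 79.0 RPKM in the NSC libraries and to 0.166 to 118 RPKM in the progenitors. The 10 NSC genes (Gfap and Slc1a3 among them) summed to 280 to 5558 RPKM in NSC and to 157 to 14915 RPKM in the progenitors, with Fabp7 as the largest gene in all 20 libraries. By gene, 1 of these 10 was higher in NSC than in the mean of the progenitors (4 with the batch number as a replicate block) and 0 were lower, with a median log2 fold change of 1.53. Of all genes tested, 1.96% were higher and 0.0217% lower (4.14% and 0.225% with the block). In sorted bulk samples, fewer cells of a type and less RNA per cell cannot be told apart.

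Most members were high in the NSC gate and near 0 in all 4 progenitor gates. Of the 60 members, 54 passed the filter on low values, a minimum of 1 RPKM in 4 or more of the 20 libraries, which kept 27614 genes. The others were Cfap58, Efcab3, Efcab9, Rsph6a, Spag11b and Tekt5. Differences are given as log2 fold changes on the log2(RPKM + 1) scale, which understates the change of low genes, and were tested with limma at a Benjamini-Hochberg adjusted p under 0.05. Against the mean of the 4 progenitors, 35 of the 54 members tested were higher in NSC and 0 were lower, while 1.96% of all genes tested were higher and 0.0217% lower. The median log2 fold change was 2.93 over the members and -0.07 over all genes tested.

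**Figure D1:**
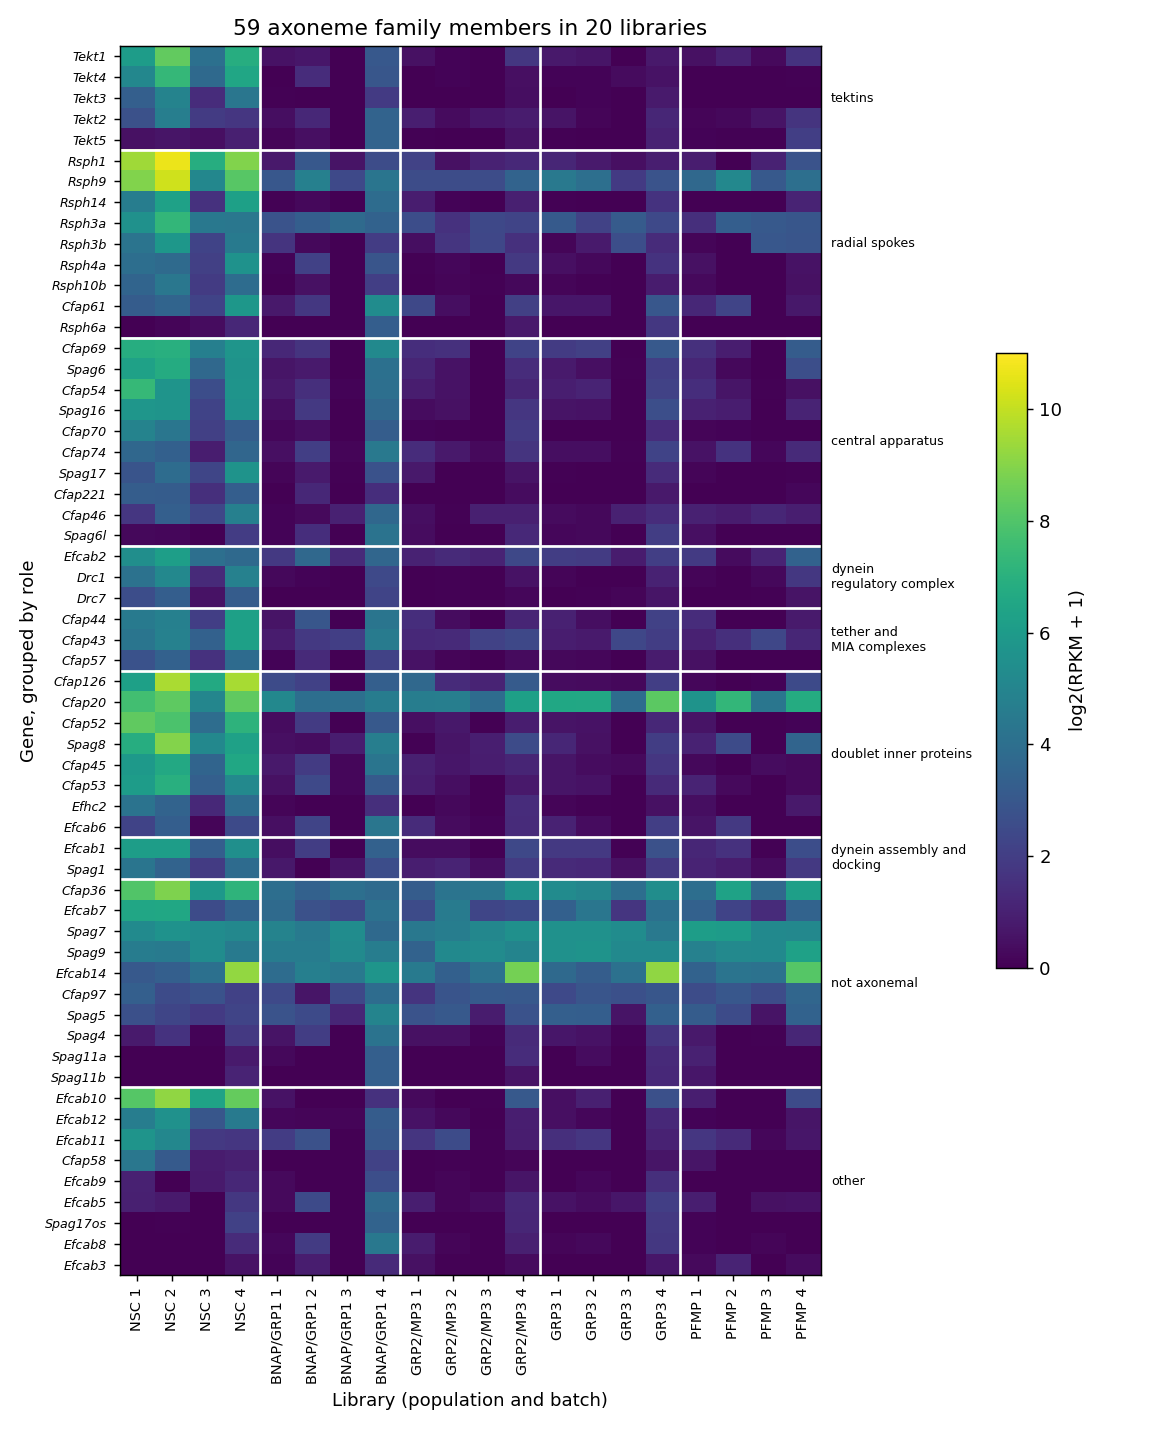
Level of 59 of the 60 members as log2(RPKM + 1), shown by colour, in the 20 libraries (columns, grouped by population and numbered by batch), with genes in rows grouped by role and ordered by their median in NSC. The 4 NSC columns are bright for most axonemal groups. The progenitor columns are mostly dark apart from BNAP/GRP1 4, with brighter rows such as Cfap20 and Rsph9. Most genes placed outside the axoneme show no such contrast, apart from Cfap36 and Efcab7.

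Taken one at a time, the progenitors showed 19 (BNAP/GRP1), 30 (GRP2/MP3), 30 (GRP3) and 31 (PFMP) members that fell relative to NSC. The corresponding shares of all genes tested were 0.76%, 1.12%, 1.04% and 1.14%. No member rose in any progenitor, beside 0%, 0%, 0.0109% and 0.00362% of all genes tested. With the batch number as a replicate block, 32, 37, 36 and 35 members fell (2.02%, 2.91%, 2.33% and 2.61% of all genes) and 0 rose (0.0652%, 0.174%, 0.275% and 0.185% of all genes). In that fit 41 members were higher and 0 lower in NSC than in the mean of the progenitors, against 4.14% and 0.225% of all genes. These 4 comparisons share the NSC libraries and are not independent of each other. In the same order, the members had a median log2 fold change of -2.63, -3.13, -3.09 and -3.05, beside 0.38, -0.08, 0.05 and -0.20 over all genes.

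The counts depended on single libraries. Shares of all genes are not given for these fits, so the shifts cannot be called particular to the members. For BNAP/GRP1 the count of 19 became 9, 7 and 32 without NSC 1, NSC 2 and NSC 3, and 8, 10, 9 and 31 without BNAP/GRP1 1 to BNAP/GRP1 4. For GRP3 the 30 became 18 and 17 without NSC 1 and NSC 2, and 17, 17 and 18 without GRP3 1, GRP3 2 and GRP3 3. For GRP2/MP3 the 30 became 18 without NSC 2, and for PFMP the 31 became 18 without NSC 1 and 18 without NSC 2.

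Of the members tested, 18 fell in all 4 progenitors, among them Tekt1, Tekt3, Tekt4, Rsph1, Rsph9, Rsph10b, Spag6, Cfap221, Cfap126, Cfap45, Cfap52, Cfap53, Efhc2, Spag8, Efcab1, Efcab10 and Efcab12. Another 11 fell in the 3 populations other than BNAP/GRP1: Cfap54, Cfap57, Cfap69, Cfap70, Spag16, Spag17, Drc1, Efcab2, Rsph14, Rsph3a and Rsph4a. The difference between BNAP/GRP1 and the others was tested directly and passed for none of them. Cfap43 fell in GRP3 and PFMP, Cfap36 in BNAP/GRP1 and GRP2/MP3, Cfap44 in PFMP, and 22 members in none. With the replicate block, 30 members fell in all 4 progenitors and 16 in none. In that fit BNAP/GRP1 was added for all of the 11 but Rsph3a and Efcab2, and Cfap43, Cfap36 and Spag1 fell in all 4 populations. Cfap44, Drc7 and Efcab11 then fell in the 3 populations other than BNAP/GRP1, Cfap46 in GRP2/MP3 and GRP3, Cfap20 in BNAP/GRP1 and GRP2/MP3, and Rsph3b in BNAP/GRP1. How many of all genes fell in all 4 progenitors, or in none, was not counted in either fit. The 4 comparisons share the NSC libraries, so a fall in all 4 is not 4 separate results.

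**Figure D2:**
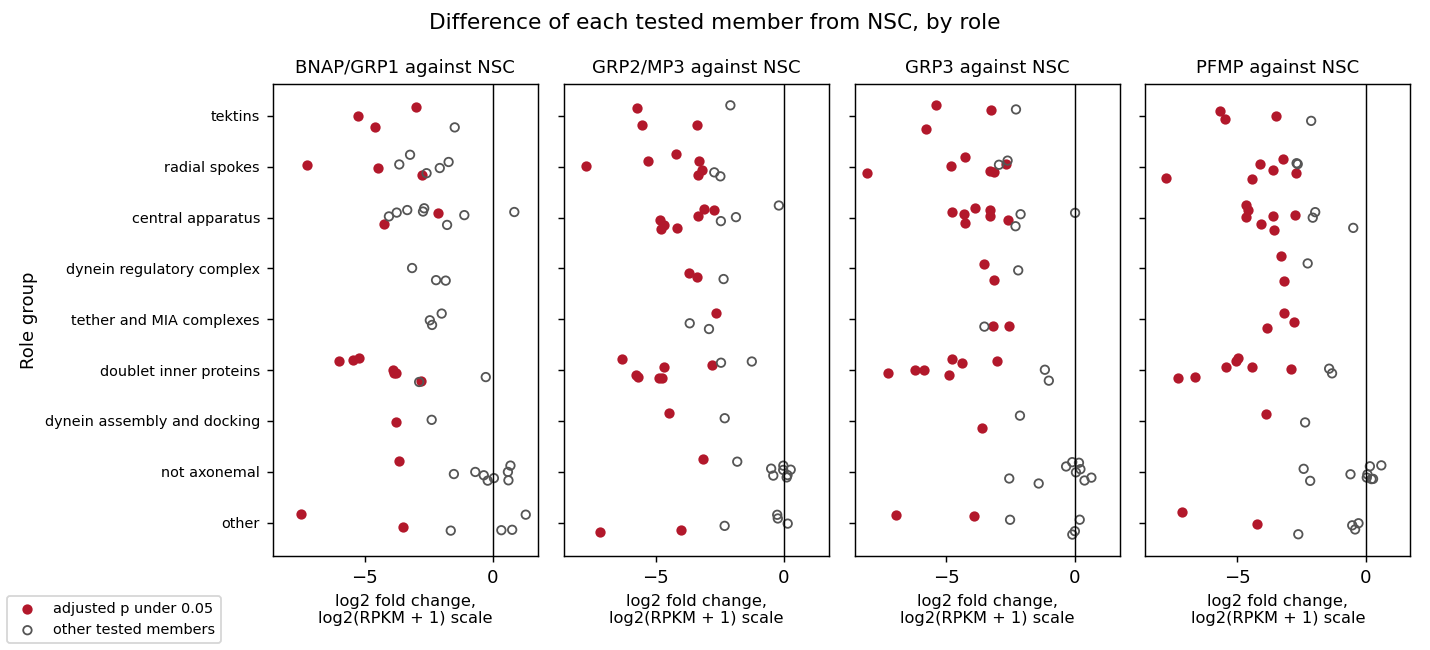
Log2 fold change (x axis, log2(RPKM + 1) scale) of the 54 tested members in each progenitor against NSC, in rows by role group; filled points passed an adjusted p under 0.05 and open points did not. Points of the axonemal groups lie mostly between -2 and -8, and those of the group placed outside the axoneme lie around 0 apart from Cfap36 and Efcab7.

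The order of the libraries gave a view that does not depend on the scale. In 37 of the 54 members tested, the NSC library lay above all 4 progenitor libraries of its batch in all 4 batches, as did 3.28% of all genes tested. For 12 members all 4 NSC libraries lay above all 16 progenitor libraries (0.587% of all genes), and for 26 they lay above the 15 progenitor libraries other than BNAP/GRP1 4 (1.26% of all genes). Among the 12 were Rsph1, Rsph3a, Tekt1, Tekt4, Cfap221, Cfap126, Cfap52, Cfap53, Spag8, Efcab2 and Efcab10.

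Tektins are filament proteins that run along the doublet wall. Tekt1 stood at 66.9, 327, 15.6 and 115 RPKM in NSC 1 to NSC 4 and between 0 and 7.21 RPKM in the 16 progenitor libraries, with a median of 0.493 RPKM. All NSC libraries lay above all progenitor libraries. The log2 fold change of NSC against the progenitors was 5.58 ± 0.63 (SE, adjusted p = 1.12e-05).

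Tekt4 followed the same order, at 33.6, 161, 12.5 and 91.4 RPKM in NSC and 0 to 6.76 RPKM in the progenitors (median 0.0587 RPKM). It was 5.30 ± 0.56 higher in NSC (adjusted p = 6.63e-06). Tekt3 was lower throughout, at 9.18, 29.1, 1.60 and 18.8 RPKM in NSC, and it was listed at 0 in 10 progenitor libraries, with 2.61 RPKM at most, in BNAP/GRP1 4. NSC 3 lay below that library and above the other 15, and the difference of 3.28 ± 0.49 passed the test (adjusted p = 0.000321).

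Tekt2 did not pass. It reached 5.53, 25.1, 2.75 and 2.36 RPKM in NSC and up to 10.3 RPKM in BNAP/GRP1 4, while the other 15 progenitor libraries lay below all NSC libraries. Its difference of 1.99 ± 0.58 missed the threshold (adjusted p = 0.101, and 0.0315 with the replicate block). In GENCODE vM21, 20.8% of its exonic bases are shared with Gm12945, and the strand setting of the counting was not given in the sources used here. Tekt5, a tektin of the sperm tail, was under 1 RPKM in every NSC library (0.427, 0.552, 0.366 and 0.946 RPKM), and its highest values were 10.2 RPKM in BNAP/GRP1 4, 3.16 RPKM in PFMP 4 and 1.06 RPKM in GRP3 4.

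**Figure D3:**
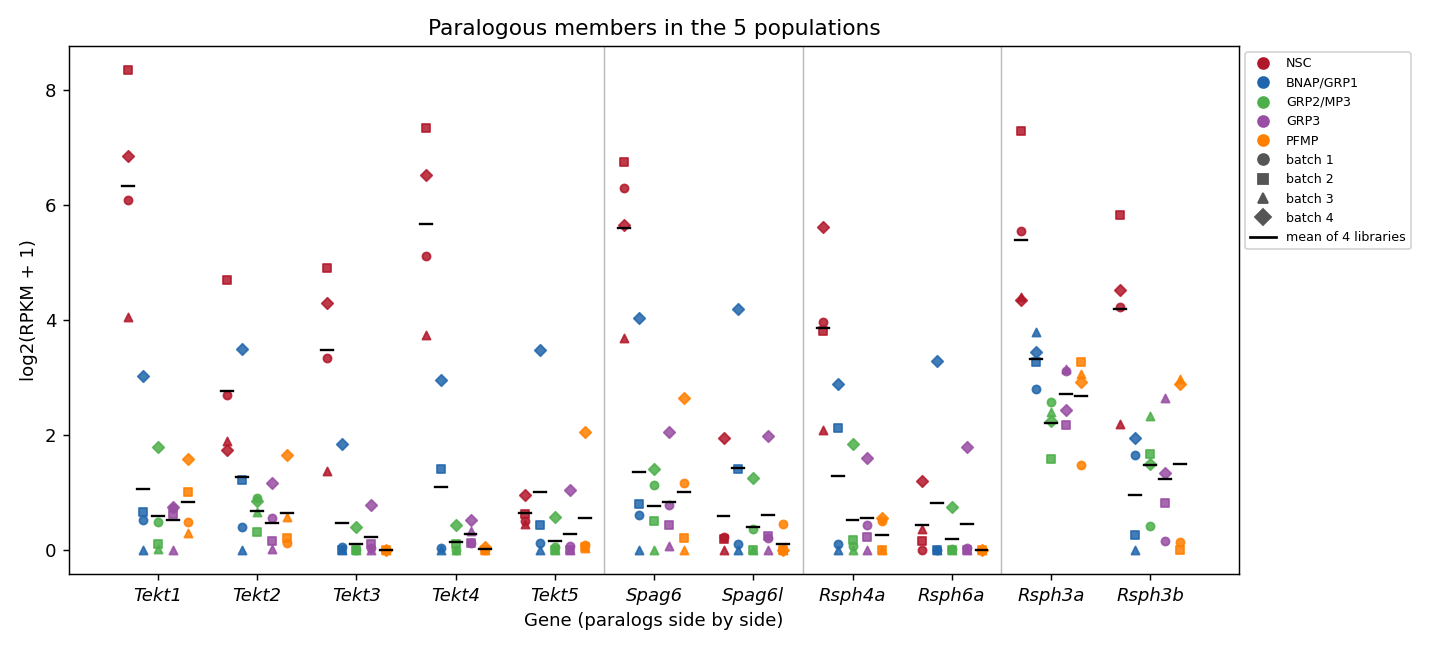
Levels of 11 paralogous members as log2(RPKM + 1) (y axis) in the 5 populations (colours) and 4 batches (marker shapes), with a black line for the mean of the 4 libraries. Tekt1, Tekt2, Tekt3, Tekt4, Spag6, Rsph4a, Rsph3a and Rsph3b have their means highest in NSC, whereas Tekt5, Spag6l and Rsph6a stay low in NSC and have their highest library in BNAP/GRP1 4.

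Radial spokes gave the highest level of any member. Rsph1, a protein of the spoke head, stood at 682, 1647, 114 and 483 RPKM in NSC 1 to NSC 4 and between 0 and 7.14 RPKM in the progenitors, with a median of 1.01 RPKM. The groups did not overlap, and the log2 fold change of 7.71 ± 0.61 (adjusted p = 4.07e-07) was the largest of the members. Rsph9, also of the spoke head, stood at 485, 1170, 33.5 and 283 RPKM in NSC and at 2.66 to 34.5 RPKM in the progenitors (median 8.88 RPKM). Only NSC 3 lay within the progenitor range, below PFMP 2, and the difference was 4.67 ± 0.68 (adjusted p = 0.000245). Unlike Rsph1, Rsph9 was above 1 RPKM in every progenitor library.

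The third spoke head gene has 2 paralogs, and the motile cilium and sperm forms parted in these data. Rsph4a, the form of motile cilia, stood at 14.6, 13.1, 3.25 and 48.2 RPKM in NSC and at 0 to 6.47 RPKM in the progenitors (median 0.150 RPKM). NSC 3 lay below BNAP/GRP1 2 and BNAP/GRP1 4, and the difference was 3.21 ± 0.60 (adjusted p = 0.0033). Rsph6a, the form of the sperm tail, was listed at 0 in NSC 1 and stood at 0.114, 0.292 and 1.32 RPKM in NSC 2 to NSC 4. It was not tested, and its highest value was 8.76 RPKM in BNAP/GRP1 4.

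Rsph3a, of the spoke stalk, stood at 45.8, 155, 20.3 and 19.3 RPKM in NSC and at 1.81 to 13.0 RPKM in the progenitors (median 6.29 RPKM), with no overlap. Its difference of 2.66 ± 0.49 passed (adjusted p = 0.00254). Its paralog Rsph3b stood at 17.8, 56.2, 3.58 and 21.9 RPKM in NSC and at 0 to 6.93 RPKM in the progenitors, where the highest values were in batch 3 and in PFMP 4. In batch 3 Rsph3b was higher in GRP2/MP3, GRP3 and PFMP (4.05, 5.27 and 6.93 RPKM) than in NSC 3. It was called in NSC against the mean of the progenitors (2.89 ± 0.68, adjusted p = 0.0238) but not without NSC 1 (0.1095), NSC 2 (0.280) or NSC 4 (0.0937). It fell in no single progenitor, and in BNAP/GRP1 with the replicate block. Since both copies are closely related, reads may be split between them.

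The other spoke members were Rsph10b, which was 3.12 higher in NSC and shares 10.5% of its exonic bases with Gm42421, Rsph14, which was 4.14 higher, and Cfap61, a protein at the spoke base. Cfap61 stood at 8.26, 10.6, 3.63 and 55.9 RPKM in NSC, but BNAP/GRP1 4 held 39.9 RPKM. It lay above the progenitor libraries of its batch in all 4 batches. Its log2 fold change of 2.36 ± 0.81 did not pass (adjusted p = 0.243, and 0.0166 with the replicate block).

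Of the 10 members placed in the central apparatus, 7 were higher in NSC than in the mean of the progenitors (1.96% of all genes). Spag6, a central pair protein needed for ciliary beating, stood at 78.0, 107, 11.96 and 49.7 RPKM in NSC and at 0 to 15.5 RPKM in the progenitors (median 0.633 RPKM). NSC 3 lay below BNAP/GRP1 4 and above the other 15, and the difference was 4.61 ± 0.68 (adjusted p = 0.000285). The gene meant is ENSMUSG00000022783 on chromosome 16, which GENCODE vM21 calls Spag6l. The gene that the table calls Spag6l (ENSMUSG00000037708, chromosome 2) is Spag6 in that annotation. It was at 0.173, 0.149, 0 and 2.87 RPKM in NSC and reached 17.4 RPKM in BNAP/GRP1 4, 2.98 RPKM in GRP3 4 and 1.68 RPKM in BNAP/GRP1 2. So of these copies, the one on chromosome 16 was high in the NSC gate and the one on chromosome 2 was not.

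Cfap69 and Cfap54, 2 proteins placed at the central pair, were the other most abundant genes of the group. Cfap69 stood at 114, 121, 26.3 and 52.7 RPKM in NSC and at 0 to 36.0 RPKM in the progenitors (median 1.902 RPKM). Its highest progenitor library was BNAP/GRP1 4, above NSC 3, and the next, PFMP 4, stood at 8.26 RPKM. Cfap69 was 4.45 ± 0.76 higher in NSC (adjusted p = 0.00131). Cfap54 stood at 163, 50.7, 5.06 and 50.1 RPKM in NSC and at 0 to 15.0 RPKM in the progenitors (median 0.778 RPKM). It too was below BNAP/GRP1 4 only in NSC 3, and it was 4.35 ± 0.70 higher in NSC (adjusted p = 0.000718).

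Spag16 and Spag17, which assemble on the central pair with Spag6, were 3.87 ± 0.69 and 3.25 ± 0.54 higher in NSC (adjusted p = 0.00203 and 0.00111). Cfap221 and Cfap70 were 2.55 and 3.16 higher. Cfap46 and Cfap74, which share a central pair projection with Cfap54 and Cfap221, did not pass. Cfap46 stood at 2.34, 8.99, 4.05 and 26.7 RPKM in NSC and at 0.0449 to 11.7 RPKM in the progenitors (2.15 ± 0.58, adjusted p = 0.0643, and 0.00592 with the replicate block). Cfap74 stood at 11.7, 9.42, 0.820 and 11.3 RPKM in NSC and at 0.0454 to 20.6 RPKM in the progenitors (1.76 ± 0.67, adjusted p = 0.367, and 0.0365 with the replicate block). In both, the highest progenitor library was BNAP/GRP1 4, and all NSC libraries of Cfap46 lay above the 15 others.

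The dynein regulatory complex was represented by Drc1, its scaffold, by Drc7 and by Efcab2, also named Drc8. All were higher in NSC. Drc1 stood at 16.6, 34.0, 1.45 and 27.2 RPKM in NSC and at 0 to 4.34 RPKM in the progenitors, with a median of 0.0864 RPKM. Only NSC 3 overlapped with them, and only with BNAP/GRP1 4 and PFMP 4. Drc1 was 3.42 ± 0.59 higher in NSC (adjusted p = 0.00144).

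Drc7 was lower, at 5.14, 8.81, 0.437 and 8.32 RPKM in NSC and 0 to 3.79 RPKM in the progenitors. It was called against the mean of the progenitors (2.16 ± 0.46, adjusted p = 0.0114). It fell in no single one of them, and in GRP2/MP3, GRP3 and PFMP with the replicate block. Efcab2 stood at 42.3, 70.6, 15.0 and 12.7 RPKM in NSC and at 0.232 to 12.2 RPKM in the progenitors (median 2.62 RPKM), with no overlap, although BNAP/GRP1 2 came close to NSC 4. Its difference of 2.97 ± 0.59 (adjusted p = 0.00545) did not pass without NSC 1 (0.0509) or without NSC 2 (0.0829).

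Cfap43 and Cfap44 form the tether that holds the motor domain of an inner dynein to the doublet, and Cfap57 lies along the same inner dyneins. Cfap43 stood at 18.6, 27.3, 9.73 and 75.5 RPKM in NSC and at 0.729 to 23.1 RPKM in the progenitors (median 2.15 RPKM). Cfap44 had similar NSC levels, at 21.4, 27.0, 3.17 and 76.2 RPKM, and stood at 0 to 18.3 RPKM in the progenitors (median 0.601 RPKM). In both, BNAP/GRP1 4 was the highest progenitor library and exceeded NSC 3, and for Cfap43 also NSC 1.

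The differences from the mean of the progenitors were 2.92 ± 0.59 for Cfap43 (adjusted p = 0.00613) and 3.37 ± 0.72 for Cfap44 (adjusted p = 0.0107). Cfap43 did not pass without NSC 4 (0.0588), nor Cfap44 without NSC 1 (0.0555), NSC 2 (0.0792) or NSC 4 (0.0861). Cfap57, at 5.78, 9.67, 1.97 and 13.4 RPKM in NSC and 0 to 3.48 RPKM in the progenitors, was 2.50 ± 0.44 higher in NSC (adjusted p = 0.00177).

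Inner proteins of the doublet were the group with the largest median difference, 4.61 over 9 genes. Of these, 7 were higher in NSC, beside 1.96% of all genes tested. Cfap126, also known as Flattop, stood at 74.2, 770, 100.2 and 763 RPKM in NSC and at 0 to 12.3 RPKM in the progenitors, with a median of 1.32 RPKM. The groups did not overlap (6.58 ± 0.72, adjusted p = 8.44e-06). Its highest progenitor library was GRP2/MP3 1 and not BNAP/GRP1 4.

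Spag8 stood at 114, 499.9, 34.2 and 76.9 RPKM in NSC and at 0 to 25.4 RPKM in the progenitors (median 0.872 RPKM), again with no overlap (5.48 ± 0.79, adjusted p = 0.000204). Efhc2, on the X chromosome, stood at 17.3, 10.4, 1.38 and 13.9 RPKM in NSC and at 0 to 1.82 RPKM in the progenitors (2.89 ± 0.47, adjusted p = 0.000826). In Efhc2, NSC 3 lay below BNAP/GRP1 4 and GRP2/MP3 4.

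Cfap45, Cfap52 and Cfap53 were 4.75, 6.16 and 4.61 higher in NSC, and all 3 fell in every progenitor. Efcab6 and Cfap20 did not pass. Efcab6 stood at 3.57, 8.78, 0.124 and 4.56 RPKM in NSC and reached 19.2 RPKM in BNAP/GRP1 4. Cfap20, which closes the inner junction of the doublet, was the member with the highest mean in PFMP.

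Cfap20 stood at 200.4, 308, 31.9 and 314 RPKM in NSC, 34.6, 15.0, 15.0 and 23.6 RPKM in BNAP/GRP1, 24.5, 24.9, 13.7 and 74.3 RPKM in GRP2/MP3, 91.9, 94.7, 14.0 and 296 RPKM in GRP3, and 49.6, 154, 19.0 and 109 RPKM in PFMP. NSC was the highest population in every batch, but GRP3 4 came close to NSC 4. Its log2 fold change of 1.91 ± 0.70 did not pass (adjusted p = 0.313, and 0.0109 with the replicate block). With the block, Cfap20 fell in BNAP/GRP1 and GRP2/MP3 but not in GRP3 or PFMP.

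Efcab1, a calcium-binding protein of the outer dynein docking complex, stood at 67.9, 69.2, 8.62 and 43.3 RPKM in NSC and at 0 to 9.59 RPKM in the progenitors (median 1.63 RPKM). NSC 3 lay below BNAP/GRP1 4 and above the other 15, and the difference was 3.94 ± 0.68 (adjusted p = 0.00147). Spag1, which helps assemble dynein arms in the cytoplasm, stood at 18.2, 10.2, 2.71 and 13.5 RPKM in NSC and at 0.0289 to 5.15 RPKM in the progenitors. It was called against the mean of the progenitors (2.29 ± 0.52, adjusted p = 0.0178) but not without NSC 1 (0.160), NSC 2 (0.104) or NSC 4 (0.0752). Spag1 fell in no progenitor alone and in all 4 with the replicate block.

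Among the 9 members placed in no group, Efcab10 had the second largest difference of all members. It stood at 273, 572, 81.8 and 332 RPKM in NSC and at 0 to 7.36 RPKM in the progenitors (7.19 ± 0.65, adjusted p = 1.36e-06), without overlap. Efcab12 was 3.91 higher in NSC. Efcab11, at 51.1, 32.6, 2.59 and 2.39 RPKM in NSC and 0 to 7.53 RPKM in the progenitors, did not pass (2.27 ± 0.71, adjusted p = 0.145, and 0.00675 with the replicate block). Cfap58 was high in 2 libraries only, at 19.3 RPKM in NSC 1 and 7.77 RPKM in NSC 2, and was not tested.

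Few of the members placed outside the axoneme were called. As the role groups were chosen with earlier results of these data known, the contrast between groups is a description and was not tested. Of the 9 tested, only Cfap36, whose product binds the small GTPase Arl3, was called, and the median log2 fold change of the group in NSC against the progenitors was 0.02. Cfap36 stood at 258, 465, 57.3 and 141 RPKM in NSC and at 8.23 to 79.8 RPKM in the progenitors (median 16.4 RPKM). NSC 3 lay below PFMP 2 and PFMP 4. The difference of 2.94 ± 0.57 (adjusted p = 0.00406) did not pass without NSC 2 (0.0602). With the replicate block it fell in all 4 progenitors.

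Spag7 and Spag9, genes used by many cell types, overlapped between the NSC and progenitor gates. Spag7 stood at 34.1 to 47.0 RPKM in NSC and 12.7 to 68.6 RPKM in the progenitors. Its log2 fold change was 0.22 ± 0.38. Spag9, a scaffold of JNK signalling and motor transport, stood at 21.8 to 40.2 RPKM in NSC and 10.1 to 77.0 RPKM in the progenitors (-0.32 ± 0.39). Neither difference exceeded its standard error.

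Spag5, a protein of the mitotic spindle, stood at 5.44, 3.86, 2.62 and 3.73 RPKM in NSC and at 0.492 to 30.0 RPKM in the progenitors. Cfap97 stood at 9.14, 4.66, 5.87 and 3.39 RPKM in NSC and at 0.560 to 14.0 RPKM in the progenitors. Efcab7, which tethers a complex at the base of the primary cilium, stood at 91.0, 92.1, 4.64 and 10.4 RPKM in NSC and at 1.55 to 22.7 RPKM in the progenitors (1.72 ± 0.70, adjusted p = 0.453). Of the NSC libraries, NSC 1 and NSC 2 alone lay above all 16 progenitor libraries. Spag4, a protein of the nuclear envelope, stood at 0.733, 2.07, 0.0754 and 2.57 RPKM in NSC, and 17.5 RPKM in BNAP/GRP1 4 was its highest value.

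Efcab14 separated by batch and not by population. It stood at 586 RPKM in NSC 4, 419 RPKM in GRP2/MP3 4, 582 RPKM in GRP3 4, 270 RPKM in PFMP 4 and 51.7 RPKM in BNAP/GRP1 4. In batches 1 to 3 it lay between 7.31 and 26.1 RPKM in all 15 libraries. It therefore had the highest mean of any member in BNAP/GRP1, GRP2/MP3 and GRP3, although in none of them did it differ from NSC by the test.

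The division at 1 RPKM used the NSC values, so the levels of the 2 sides describe the division and were not tested. Just above it lay Spag4 (median 1.40 RPKM), Spag5 (3.80 RPKM) and Efcab6 (4.06 RPKM), and just below it Efcab9 (0.863 RPKM), Efcab5 (0.846 RPKM), Tekt5 (0.489 RPKM) and Rsph6a (0.203 RPKM). The other low members were Spag6l, Spag17os, Efcab8, Efcab3, Spag11a and Spag11b. Tekt5 and Rsph6a belong to the sperm tail, Efcab9 to a calcium channel of sperm, and Spag11a and Spag11b are defensin-like genes of the epididymis. In gene overlaps, 74.6% of the exonic bases of Efcab3 are shared with Gm11639, 42.2% of those of Spag11a with Gm45826 and 11.7% of those of Spag17os with Spag17.

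Among the 10 low members, BNAP/GRP1 4 held the highest progenitor value of every one, as it did for 53.5% of all genes tested. Their median there was 9.61 RPKM, against 0 to 2.09 RPKM in the other 19 libraries, of which GRP3 4 and NSC 4 (1.31 RPKM) were highest. A further 42 members were at 1 RPKM or more in NSC and were not placed outside the axoneme. Their median was 8.34 RPKM in BNAP/GRP1 4, close to that of the low members and to the 8.30 RPKM of all genes in this library. A list of 11 male germ cell genes summed to 91.6 RPKM in BNAP/GRP1 4 and to 0.0187 to 16.8 RPKM elsewhere. The part of this library in the values of the low members was not tested.

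Those 42 members were compared within each batch. They were chosen in part by their NSC level, so that choice itself favours values below NSC. Their median difference from the NSC library of the same batch was -3.90, -4.05, -4.13 and -4.03 in BNAP/GRP1, GRP2/MP3, GRP3 and PFMP of batch 1, and -4.08, -4.89, -4.56 and -4.79 in batch 2. In batch 3 it was -2.14, -2.08, -2.09 and -2.07, and in batch 4 it was -1.87, -3.78, -3.40 and -3.85. These medians lay below 0 in every batch, by the least in batch 3 and in BNAP/GRP1 of batch 4. The median difference of all genes tested lay between -0.88 and 0.11, apart from 1.53 in BNAP/GRP1 4. Batch by batch, 46, 44, 44 and 39 of the 54 members tested had NSC above all 4 progenitor libraries of that batch. The corresponding shares of all genes tested were 20.4%, 20.1%, 29.1% and 11.8%.

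**Figure D4:**
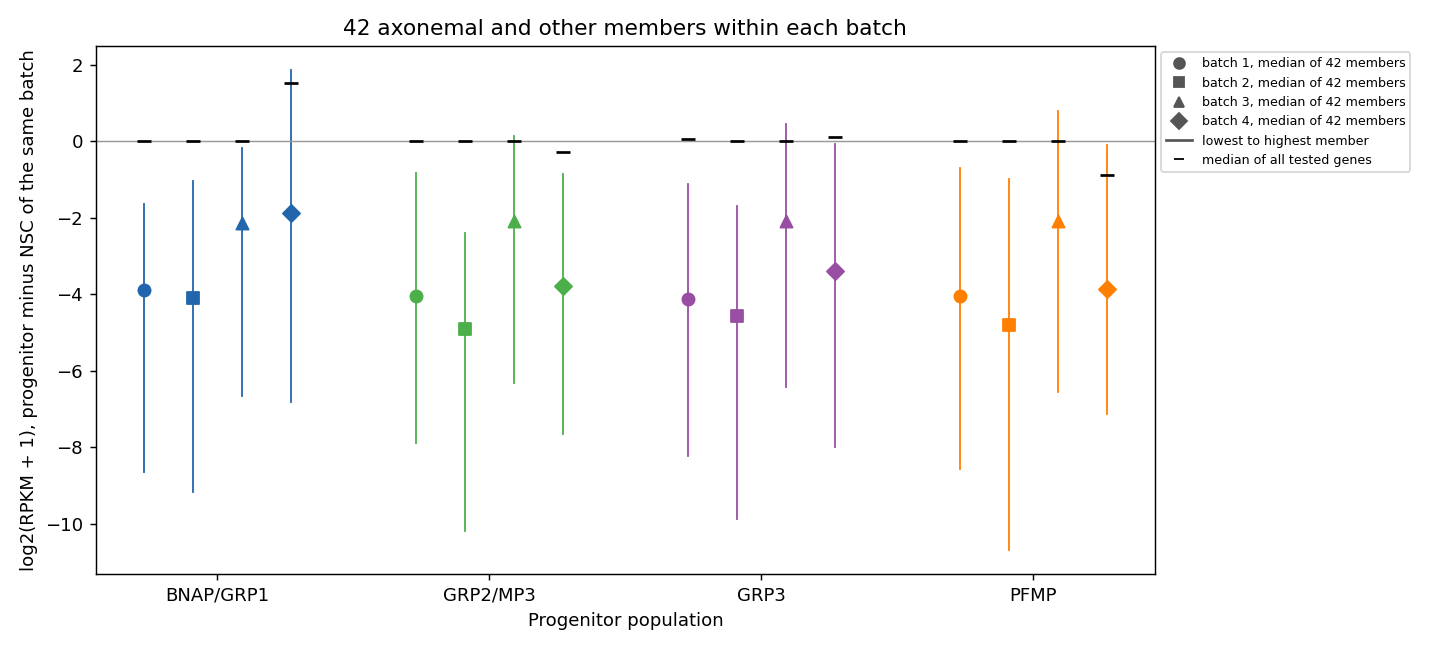
Difference in log2(RPKM + 1) between a progenitor library and the NSC library of its batch (y axis) for the 42 members, by progenitor (x axis, colours) and batch (marker shapes); markers are medians, vertical lines run from the lowest to the highest member, and black dashes are medians of all genes tested. All 16 medians of the members lie below 0, with the smallest differences in batch 3 and in BNAP/GRP1 of batch 4. The choice of the 42 by their NSC level favours this direction.

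The NSC libraries differed among themselves. NSC 3 was the lowest NSC library for 41 of the 54 members tested (33.4% of all genes), and NSC 2 the highest for 27 (14.8% of all genes). The summed level of the 42 members was 3341, 7130, 623 and 3624 RPKM in NSC 1 to NSC 4, and the ependymal sums given above had their lowest value in NSC 3 and their highest in NSC 2 as well. In the progenitors, the 42 members summed to 37.4 to 470 RPKM, highest in BNAP/GRP1 4. Progenitor libraries of batch 3 listed 21 to 31 of the 54 members at 0, against 31.4% to 34.7% of all genes. The part of ependymal RNA and of the batch 3 libraries in these differences was not tested.

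The direct comparisons of 2 progenitors set their means against each other, with the filter and the error estimate taken from all 20 libraries. In none of the 6 did any member, or any gene tested (0%), pass the threshold in limma. At an unadjusted p under 0.05 there were 2 members. Cfap20 was lower in BNAP/GRP1 than in GRP3 (-1.87 ± 0.88, adjusted p = 0.950), where 1.9% of all genes were at such a p, and Efcab8 was higher in BNAP/GRP1 than in PFMP (1.56 ± 0.72, adjusted p = 0.674), where 4.91% were. With library weights, Cfap20 was lower than in GRP3 in both BNAP/GRP1 (-1.59) and GRP2/MP3 (-1.85), with adjusted p of 0.0301 and 0.0388. That setting called 13.9% and 9.63% of all genes in these comparisons. The members' median log2 fold change was 0.54 to 0.64 in the 3 comparisons of BNAP/GRP1 with another progenitor, where that of all genes was 0.32 to 0.53, and -0.12 to 0.16 in the rest. The median standard error of the members was 0.75, and differences well above this size also went uncalled. In GRP2/MP3 against GRP3 the differences over all genes reached -9.33, with 0 genes called. The lack of calls therefore does not show that the members were alike in the progenitors.

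Other genes of motile cilia were taken from 2 lists. Beside their counts, 1.96% of all genes tested were higher in NSC (4.14% with the replicate block). Of all genes, 0.76%, 1.12%, 1.04% and 1.14% fell in BNAP/GRP1, GRP2/MP3, GRP3 and PFMP. With the block, the shares that fell were 2.02%, 2.91%, 2.33% and 2.61%. Of 14 tested regulators of multiciliation, 6 were higher in NSC than in the mean of the progenitors and 0 lower, and 3, 4, 3 and 6 fell in BNAP/GRP1, GRP2/MP3, GRP3 and PFMP. With the replicate block 9 were higher in NSC, and 4, 8, 6 and 9 fell. Foxj1, the transcription factor that switches on motile cilium genes, was 5.80 higher, Ccno and Mcidas, which act in the early steps of multiciliation, 4.14 and 2.31, and Myb, Cdc20b and Rfx2 3.83, 2.39 and 1.99. Foxj1 stood at 141, 352, 34.3 and 33.1 RPKM in NSC and at 0.00416 to 9.42 RPKM in the progenitors. Axonemal dynein heavy chains, the motors themselves, had 13 tested entries, among which the name Dnah14 recurs under separate identifiers. Of the 13 entries, 6 were higher in NSC (9 with the block) and 0 lower, led by Dnah9 (4.06). Of these, 0, 1, 2 and 2 fell in the 4 progenitors, and 2, 7, 6 and 7 with the replicate block. Of the 8 ependymal genes outside the cilium, 5 were higher in NSC (7 with the block) and 0 lower, and 5, 4, 5 and 5 fell in the progenitors. The median difference was 6.23 over these ependymal genes, 1.97 over the regulators and 1.62 over the heavy chains, beside 2.93 over the members.

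Promoters were read for 45 of the 60 members and for 27025 genes, from 250 bases before to 50 bases after the RefSeq start (GRCm38.p6), as members that move together may share letters there. An X-box, the element that RFX factors bind in ciliary genes, was searched as GTTNCC and GNAAC with 3 bases between them on both strands. It was found in 5 of 45 members (11.1%) and in 0.936% of all genes. These 5 windows are shown because they hold the full element, which is in capitals, in the strand of the gene, which was the plus strand for all:
Cfap44 (chr16:44394749-44394798): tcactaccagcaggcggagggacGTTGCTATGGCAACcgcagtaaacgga
Cfap45 (chr1:172521088-172521129): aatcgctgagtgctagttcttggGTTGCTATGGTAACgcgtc
Cfap61 (chr2:145934753-145934789): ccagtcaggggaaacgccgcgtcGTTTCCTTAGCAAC
Spag16 (chr1:69826844-69826903): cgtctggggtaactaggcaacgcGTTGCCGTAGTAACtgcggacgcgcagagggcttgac
Tekt4 (chr17:25471567-25471603): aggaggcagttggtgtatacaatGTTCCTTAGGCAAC

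Cfap45, Spag16, Tekt4 and Cfap44 fell in at least 1 progenitor and Cfap61 did not. The element lay 103 bases before the start in Spag16 and within 27 bases of it in the others. The shorter letters GTTGCC, which the X-box can contain, were found in 17 members (37.8%) and in 14.1% of all genes, 8 of the 24 members that fell in some progenitor and 9 of the 21 others. The forkhead letters TGTTTAC were found in 3 members, Cfap20, Cfap43 and Tekt3 (6.67%), and in 4.05% of all genes. A match describes letters in this window and is not shown to be a bound site.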

How the data were processed

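The deposited table held RPKM values, which the authors made from the reads of 20 libraries (5 populations with 4 libraries each). Polyadenylated RNA was amplified before sequencing. Per the study's methods and the submitters' processing notes, reads were processed with nf-core/rnaseq, FastQC 0.11.9, cutadapt 3.4, STAR 2.6.1 (GRCm38) and Salmon 1.9.0, and the authors tested differences with DESeq2 1.26.0. The gene lengths, read total and annotation release behind the RPKM values were not given in the sources used here, so depth is unknown except relative to BNAP/GRP1 1, and no counting interval is given. The authors left out 2 experiments for low quality. The table has 26 empty columns, and genes were followed by Ensembl identifier since 125 names recur.

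Values were taken as log2(RPKM + 1), where 1 is the pseudocount. Genes that reached 1 RPKM in 4 or more libraries were fitted with limma 3.58.1 (R 4.3.3, statmod 1.5.0; lmFit, eBayes with a trend, 1 mean per population), with Benjamini-Hochberg adjustment across the 27614 genes kept. The steps were tested on simulated data. A replicate is 1 sorted library, and the study pooled the pups of each litter. The p-values of the main fit measure the spread between libraries and treat all 20 as independent, without the pairing by batch. The batch numbers pair the libraries: after population means were removed, the median correlation was 0.337, 0.262, 0.769 and 0.581 within batches 1 to 4 (0.0341 at the lowest) and -0.204 between batches. As no batch term is named in the study, the replicate block was an alternative. Other alternatives were the pseudocount, the filter, the scaling, the prior, library weights, fewer populations, and libraries or batches left out.

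The members, role groups and gene lists were chosen with earlier results of these data known. Values are given for the 3 most abundant members of each role group, for paralogs, for the most abundant member in each progenitor, for members at 1 RPKM or more in NSC that fell in no progenitor, and for those nearest that level. Others are given by counts or folds, and 1 member, kept in the counts, is not reported here. Positions are from GENCODE vM21, promoters from RefSeq. Plots were made with Python 3.11.15 and matplotlib 3.10.9.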

Additional observations from a re-analysis of the deposited data

Results flagged for a closer look

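For 31 named members and the summed level of the 42 axonemal and unplaced members, each population in which the highest library reached 1 RPKM was examined for a library far from the other 3 on the log2(RPKM + 1) scale (136 groups; a level chosen after seeing the data). Chance marks about 1 group in 20. A library stood apart in 24 groups, and in 23 of them it was the library of batch 4. The same count was not made over all genes. Among all genes tested, NSC 4 was the highest NSC library for 50.1% and BNAP/GRP1 4 the highest progenitor library for 53.5%. High values in NSC 4 and BNAP/GRP1 4 were thus common over all genes. For GRP2/MP3 4, GRP3 4 and PFMP 4 no such share is given.

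In BNAP/GRP1 4 these were Drc1 (4.34 RPKM), Drc7 (3.79 RPKM), Efhc2 (1.82 RPKM), Rsph6a (8.76 RPKM), Spag8 (25.4 RPKM), Tekt3 (2.61 RPKM) and Tekt5 (10.2 RPKM), all above the other BNAP/GRP1 libraries. In GRP2/MP3 4 they were Efcab1 (4.15 RPKM), Efcab2 (4.27 RPKM), Rsph4a (2.59 RPKM) and Rsph9 (10.5 RPKM). In GRP3 4 they were Cfap126 (3.17 RPKM), Drc1 (1.08 RPKM), Efcab14 (582 RPKM), Rsph6a (2.46 RPKM), Spag6l (2.98 RPKM) and Tekt5 (1.06 RPKM). In PFMP 4 they were Cfap126 (4.46 RPKM), Drc1 (2.44 RPKM), Efcab14 (270 RPKM) and Tekt5 (3.16 RPKM). In NSC 4 they were Efcab14 (586 RPKM) and Spag6l (2.87 RPKM). All of these were higher than the other libraries of their population. The single exception to batch 4 was Efcab2 in GRP3 3, which was lower (0.787 RPKM, against 2.79 to 3.13 RPKM). No member was higher than NSC in all batches of one progenitor and lower in all batches of another.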

How the results depend on the processing

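The counts are of members that fell in BNAP/GRP1, GRP2/MP3, GRP3 and PFMP, in that order (19, 30, 30 and 31). Shares of all genes are not given for most settings, so these counts do not show whether a shift was particular to the members. They were 8, 19, 14 and 20 with a pseudocount of 0.1, and 3, 14, 13 and 10 with only the compared populations in the fit. Without batch 1 they were 3, 7, 6 and 9 (members higher in NSC than in the progenitor mean: 16 instead of 35), and without batch 2 they were 2, 4, 6 and 5 (14). The count for PFMP was 19 without batch 4. The count for BNAP/GRP1 was 30 with quantile normalization and 43 with library weights. With these weights, the direct comparisons of progenitors gave 2 member calls instead of 0. In the comparisons that held these calls, 13.9% and 9.63% of all genes were called, against 0% in the main fit. With the replicate block the BNAP/GRP1 count was 32, where 2.02% of all genes fell. In 2 settings chosen after seeing the data, it was 30 with the replicate block and no batch 3, and 35 with the replicate block and no BNAP/GRP1 4. Leaving out 1 library at a time gave 7 to 32, 18 to 35, 17 to 35 and 18 to 35, and 29 to 38 for members higher in NSC. In each of these the counts of members that rose, and of calls between progenitors, were 0. The cause of these shifts was not tested. Of the 35 members higher in NSC, 14 were called under all 34 settings, and no called member changed direction. Between 48 and 50 members were at 1 RPKM or more in NSC when 1 NSC library was left out. Median-of-ratios scaling moved the median of all genes in BNAP/GRP1 from 0.38 to 0.26, and quantile normalization to 0.09. The replicate block changed the calls of members and lists given with the results and, for GRP2/MP3, GRP3 and PFMP, left the counts within 1.5 times. RPKM without read totals limits what can be said of values near 0.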
